A study of Mus musculus with 18 samples.

Results

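Gene bodies without H3K36me3 and without H3K27me3 formed a small set of the mouse embryonic stem cell genome. Of 13185 protein-coding genes of 10 kb or more on chromosomes 1 to 19, 595 (4.51%) met the selection rule. The rule took genes from the RefSeq annotation of GRCm38 and left out olfactory and vomeronasal receptor symbols. It required that the 1 kb windows of the gene body average under 0.20 reads per 1000000 mapped reads (RPM) of H3K36me3, under 0.30 RPM of H3K27me3 and over 0.05 RPM of H3K27me1 in both untreated libraries of each mark. The genes were thus chosen by the levels of those 3 marks in untreated cells, which are given below as description only. RNA was not measured here, so whether they are silent rests on low H3K36me3 alone. They are called unmarked genes below only as short for a gene body under both upper limits: all carry some H3K27me1 by the rule, and H3K27me2 and start-site H3K27me3 are described below.

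The study used E14, a line of mouse embryonic stem cells, grown in all groups in 2i/LIF medium, which blocks MEK and GSK3 and adds the cytokine LIF to hold the cells undifferentiated. The medium carried light, medium or heavy arginine and lysine, and the labels do not say which library had which. There were 18 chromatin immunoprecipitation libraries in 9 groups of 2. Untreated cells gave H3K27me1, H3K27me2, H3K27me3, H3K36me2 and H3K36me3 libraries without a spike-in. Cells given 10 µM EPZ-6438, an inhibitor of the methyltransferase EZH2, or the same volume of its solvent DMSO for 7 days gave H3K27me3 and H3K36me2 libraries with Drosophila S2 chromatin added at 0.05%. Because the labels do not say that replicates came from separate cultures, every p-value below measures only the spread between these libraries.

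H3K36me3 is laid down by SETD2, which travels with elongating RNA polymerase II, so the mark covers the bodies of transcribed genes. H3K27 methylation is the work of Polycomb repressive complex 2, whose catalytic subunit is EZH2 or EZH1. Its trimethyl form is densest at CG-rich promoters of repressed developmental genes, and its dimethyl form is spread over much of the untranscribed genome. H3K36me2 is written largely by NSD1 and its relatives over broad regions, and methylated H3K36 is a poor substrate for Polycomb repressive complex 2 on the same tail.

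Estimated read totals ranged from 16.3 to 84.4 M (units of 1000000 reads), apart from the H3K27me3 libraries of inhibitor-treated cells with 0.749 and 1.34 M. All 14 embryonic stem cell genes checked had H3K36me3 above the genome mean, and all 10 genes of differentiated lineages had H3K27me3 above it. H3K36me3 was also above the genome mean in 7 of those 10, and H3K27me3 in 2 of the 14. No input library was used, so mappability was read from the libraries themselves: 2.50% of windows in unmarked genes held no read in any of the 18 libraries, against 1.33% in the other eligible genes. The part of mappability in the low levels was not tested. As a comparison class, 461 eligible genes had H3K36me3 under the same limit but H3K27me3 at or over 0.30 RPM in both libraries. They are called H3K27me3-marked genes below and also belong to the 12590 other eligible genes. The name is relative to the unmarked genes, since these bodies lay near the genome mean. Their class mean of untreated H3K27me3 was 1.01 and 1.16 times it, below the 1.41 and 1.36 of all other eligible genes. By the median gene they stood at 0.915 and 1.07, above the 0.658 and 0.651 of the others.

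Promoters of the unmarked genes were short of CG dinucleotides, the feature that Polycomb targets and most active promoters share. The 250 bases before the promoter start are shown for the longest member in each of 4 gene lists with the most unmarked genes (the serpins tie with the interferon-induced clusters at 13 and come first in the order of the lists): a cytochrome P450 (Cyp2c39), a sulfotransferase (Sult2a5), a natural killer cell receptor (Klra2) and a serine protease inhibitor (Serpinb10). CG is in capitals. The start is that of the promoter entry nearest the annotated gene start, and it can lie inside the gene span used for the body. This is so for Macrod2 below, whose gene span begins at chr2:140395303. The run of genes ending with Klra2 reaches chr6:131247716, past the stretch printed for Klra2. Sequences are from RefSeq on GRCm38.p6, 5′ to 3′ along the gene, at chr19:39347096-39347345 (plus strand), chr7:13623717-13623966 (plus strand), chr6:131247363-131247612 (minus strand) and chr1:107528753-107529002 (plus strand).
Cyp2c39: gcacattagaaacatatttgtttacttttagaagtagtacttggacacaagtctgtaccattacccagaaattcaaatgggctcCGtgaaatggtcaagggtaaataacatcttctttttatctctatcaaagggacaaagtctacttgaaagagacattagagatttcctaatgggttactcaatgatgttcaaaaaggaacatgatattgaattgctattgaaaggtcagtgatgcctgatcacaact
Sult2a5: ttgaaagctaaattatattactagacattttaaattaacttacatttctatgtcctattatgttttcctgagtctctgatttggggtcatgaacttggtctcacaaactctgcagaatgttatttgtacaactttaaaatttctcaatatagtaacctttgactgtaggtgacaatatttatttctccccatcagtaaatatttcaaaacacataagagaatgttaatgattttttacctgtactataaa
Klra2: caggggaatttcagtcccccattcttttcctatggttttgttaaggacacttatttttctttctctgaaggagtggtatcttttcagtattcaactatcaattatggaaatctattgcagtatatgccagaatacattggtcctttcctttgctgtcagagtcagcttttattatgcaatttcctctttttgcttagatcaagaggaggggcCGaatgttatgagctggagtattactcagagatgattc
Serpinb10: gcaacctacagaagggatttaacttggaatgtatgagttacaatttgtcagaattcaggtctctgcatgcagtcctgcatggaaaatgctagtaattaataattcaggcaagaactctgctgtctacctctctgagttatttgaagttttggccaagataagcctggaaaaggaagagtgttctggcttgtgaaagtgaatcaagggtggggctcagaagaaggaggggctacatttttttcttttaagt
These 4 sequences hold at most 1 CG each, and the Sult2a5 promoter ends in TATAAA.

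The 2 H3K27me3-marked genes on the Polycomb-type transcription factor list are shown for contrast. Sox6 encodes an HMG-box factor and Tbx20 a T-box factor of the heart. Their promoters lie at chr7:116038745-116038994 (minus strand) and chr9:24774304-24774553 (minus strand).
Sox6: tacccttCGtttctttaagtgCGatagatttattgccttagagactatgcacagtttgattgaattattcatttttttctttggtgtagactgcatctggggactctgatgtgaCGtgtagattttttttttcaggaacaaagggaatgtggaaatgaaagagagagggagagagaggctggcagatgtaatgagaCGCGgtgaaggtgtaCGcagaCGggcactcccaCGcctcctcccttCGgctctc
Tbx20: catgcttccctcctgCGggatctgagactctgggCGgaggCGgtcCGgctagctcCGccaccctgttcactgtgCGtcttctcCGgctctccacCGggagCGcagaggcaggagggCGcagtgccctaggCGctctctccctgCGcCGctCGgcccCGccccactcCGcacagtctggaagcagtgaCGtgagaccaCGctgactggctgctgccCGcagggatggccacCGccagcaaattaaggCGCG
Sox6 has 9 CG and Tbx20 has 22.

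Many of the very long unmarked genes differed in this, and Cntnap2 and Macrod2, the longest with a promoter entry, were chosen afterwards to show it. Cntnap2 encodes a neurexin-like adhesion protein of axons, and Macrod2 an ADP-ribose hydrolase. Their promoters lie at chr6:45059811-45060060 (plus strand) and chr2:140395180-140395429 (plus strand).
Cntnap2: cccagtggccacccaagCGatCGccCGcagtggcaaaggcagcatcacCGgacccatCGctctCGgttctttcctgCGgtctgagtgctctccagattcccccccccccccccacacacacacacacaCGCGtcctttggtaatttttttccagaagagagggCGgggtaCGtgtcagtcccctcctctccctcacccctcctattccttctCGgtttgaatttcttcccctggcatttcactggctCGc
Macrod2: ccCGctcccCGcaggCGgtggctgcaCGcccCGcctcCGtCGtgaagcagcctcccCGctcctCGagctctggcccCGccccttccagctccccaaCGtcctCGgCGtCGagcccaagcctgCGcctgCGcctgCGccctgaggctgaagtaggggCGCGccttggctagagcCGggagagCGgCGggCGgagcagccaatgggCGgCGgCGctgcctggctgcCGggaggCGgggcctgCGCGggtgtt
Cntnap2 has 13 CG and Macrod2 has 30 in the bases shown.

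Over the 478 unmarked genes with an entry in the promoter table, the median was 3 CG in the 300 bases from 250 before to 50 after the start. It was 6 in the H3K27me3-marked genes, 19 in the other eligible genes and 7 over all 32851 promoters of the table. A promoter with 10 or more CG, a limit set after the counts were seen, was found in 98 unmarked genes (20.5%), 34.6% of H3K27me3-marked genes and 72.2% of the others. The 6 letters TATAAA were found on either strand in 113 unmarked promoters (23.6%), in 16.6% of H3K27me3-marked promoters, in 7.72% of the others and in 13.6% of the whole table. A match to these letters is a description of the sequence and not evidence of a bound factor.

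Members included both tandem families of tissue-specific genes and single genes of great length. Their median length was 43.1 kb (quartiles 20.3 and 135 kb). There were 53 of 500 kb or more, 8.91% of the unmarked genes against 1.29% of the other eligible genes. This was not particular to unmarked genes: 9.54% of H3K27me3-marked genes were that long, and their median length was 71.9 kb. Among the 55 eligible genes of 1000 kb or more, 23 (41.8%) were unmarked. The 6 longest were Ptprd, a receptor tyrosine phosphatase of synapses; Cntnap2; Lrp1b, a giant lipoprotein receptor relative; Macrod2; Fhit, a dinucleotide hydrolase at a common fragile site; and Robo2, an axon guidance receptor. Ptprd spanned 2270.51 kb of chromosome 4 (chr4:75941237-78211742).

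Genes of drug and steroid metabolism in the liver and gut were frequent. Unmarked genes made up 26 of 62 eligible cytochromes P450 of the Cyp1 to Cyp4 families (41.9%) and 20 of 41 UDP glucuronosyltransferases and sulfotransferases (48.8%), enzymes that oxidise foreign compounds and conjugate them for excretion. They also included 12 of 40 organic ion transporters (30%) and 13 of 33 serpins of the A and B clades. The gene lists were written with earlier results of these data known, so these shares describe the set and carry no test. They stand beside 4.51% over all eligible genes.

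Immune genes were mixed, with 19 of 52 killer cell and C-type lectin genes and 13 of 35 genes of interferon-induced clusters but 1 of 38 interleukin and Toll-like receptors (2.63%), Il7r, a lymphocyte cytokine receptor. Of neuronal adhesion molecules and receptors, 8 of 13 contactins and Cntnap genes (61.5%), 8 of 19 GABA and glycine receptor subunits and 6 of 24 glutamate receptors were unmarked. The cadherin list gave 10 of 32, among them the desmosomal genes Dsc1, Dsg1a and Dsg1b of the epidermis. Ms4a genes gave 4 of 20, Adam and Adamts proteases 4 of 39, Ceacam and Psg genes 3 of 16, collagens 3 of 41 and sperm and cilium genes 3 of 96. Single members were Abca13, a lipid transporter, of 47 ABC transporters (2.13%); Scn7a, a sodium channel relative, of 14 voltage-gated sodium channel genes; and Prl3a1, a placental prolactin relative and the 1 eligible gene of its list. None was found among 54 transcription factors of Polycomb-type families, 99 proteasome, translation and RNA polymerase genes, 14 embryonic stem cell genes, 26 muscle sarcomere genes, 23 leukocyte immunoglobulin-like receptors or 21 Trp channels.

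Unmarked genes stood side by side on the chromosome. Of the 595, 395 (66.4%) had another unmarked gene next to it in the order of eligible genes along the chromosome, against 178 of 461 H3K27me3-marked genes (38.6%) with a neighbour of their own class. There were 34 runs of 4 or more, which held 188 genes. The longest was 17 genes on chromosome 5 (chr5:87000860-88109053), running from the Ugt2b and Ugt2a glucuronosyltransferases through Sult1b1, Sult1d1 and Sult1e1 to the casein genes Csn1s1, Csn1s2a and Csn1s2b and the salivary genes Prr27, Smr3a and Smr2. Next came 13 Gm genes of chromosome 14, 10 Cyp2c genes of chromosome 19, 8 Klr genes of chromosome 6 and 7 genes of chromosome 19, mostly lipases, around Lipo1. Runs of 6 included the complement factor H genes, the Akr1c ketosteroid reductases, the Serpinb9 cluster, the Aadacl2 cluster and the Cyp3a cluster. Cluster members are near-identical copies in places, so reads can be shared or lost between them, and the genes of a run are not independent observations. Of all unmarked genes, 69 overlapped another protein-coding gene and share its windows, as Cyp2c39 does with Cyp2c38.

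All 5 marks had class means below the genome mean over these gene bodies in untreated cells. A level here is an average over many cells, so fewer cells carrying a mark and less of it per cell cannot be told apart. Relative to each library's mean over all windows, H3K27me1 stood at 0.631 ± 0.0475 (SD, n = 2 libraries), H3K27me3 at 0.304 ± 0.0342 and H3K36me3 at 0.156 ± 0.0223. Those 3 marks chose the genes. The values just inside the H3K27me3 limit were 0.234 and 0.2998 RPM in Cdh8 and 0.207 and 0.2997 RPM in Cyp3a11, and just outside it 0.195 and 0.3003 RPM in Slco1a4. For H3K36me3, Ms4a4c was just inside at 0.188 and 0.199 RPM and Tmem181a just outside at 0.201 and 0.195 RPM. At the H3K27me1 minimum, Mup-ps12 was inside at 0.0514 and 0.0725 RPM and Pramel38 outside at 0.0491 and 0.0641 RPM. No gap separated the members from their neighbours at any limit.

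**Figure D1:**
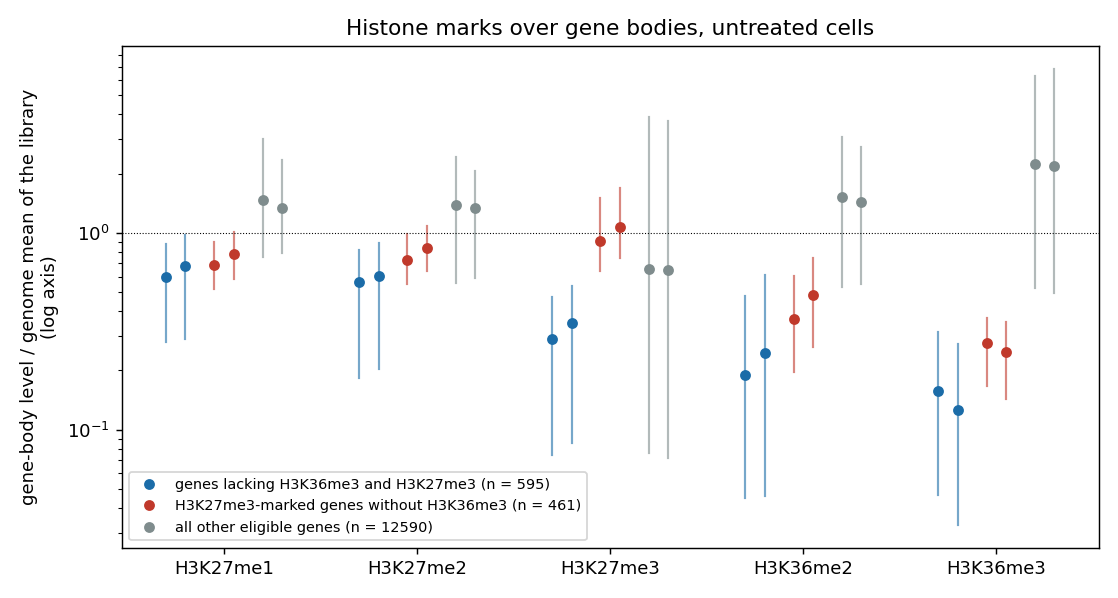
Gene-body level of the 5 marks in untreated cells, divided by the library's genome mean (log axis), for unmarked genes, H3K27me3-marked genes and all other eligible genes. Each point is the median gene of 1 library and each bar runs from the 10th to the 90th percentile of genes; unmarked genes are lowest for every mark in both libraries, and the values of H3K27me1, H3K27me3 and H3K36me3 were used to choose them.

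H3K27me2, which the rule did not use, was low as well. Member gene bodies averaged 0.274 and 0.296 RPM in the 2 libraries, which is 0.567 ± 0.0317 of the genome mean, where the other eligible genes had 1.39. The 2 libraries gave 2.66-fold and 2.26-fold lower levels than in the other genes, a mean log2 difference of -1.30 ± 0.17 (SD, n = 2; exact sign-flip permutation test, two-sided, p = 0.5, the smallest that 2 libraries allow). Both libraries were also lower than in the H3K27me3-marked genes, which stood at 0.802 of the genome mean: the log2 difference was -0.50 ± 0.05 (n = 2, exact sign-flip permutation p = 0.5). In both comparisons the difference was several times the spread between libraries, while the design cannot reach a lower p. In the authors' replicated H3K27me2 peak list, 1.06% of unmarked windows lay in a peak against 3.80% in the H3K27me3-marked genes and 44.0% in the other eligible genes, and 497 unmarked genes (83.5%) had no window in one.

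H3K36me2 was the lower of the 2 marks that the rule left free. The level was 0.117 and 0.148 RPM, or 0.263 ± 0.0431 of the genome mean (SD, n = 2), where the other eligible genes had 1.61. Unmarked genes were 7.23-fold and 5.27-fold below the others in the 2 libraries (log2 difference -2.63 ± 0.32, n = 2, exact sign-flip permutation p = 0.5). Against H3K27me3-marked genes, at 0.441 of the genome mean, they were 1.65-fold and 1.70-fold lower (log2 difference -0.74 ± 0.03, n = 2, exact sign-flip permutation p = 0.5). Of unmarked windows 1.27% lay in a replicated H3K36me2 peak, against 3.17% in the H3K27me3-marked genes and 48.1% in the other eligible genes, and 492 unmarked genes (82.7%) had none. The replicated H3K27me1 and H3K27me3 lists, whose marks the rule used, covered 2.73% and 0.885% of unmarked windows. In the H3K27me3-marked genes these shares were 2.37% and 21.3%, and in all other eligible genes 36.8% and 29.7%.

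Members differed widely among themselves in these 2 marks. H3K36me2 was lowest in 3 multi-copy Gm genes of chromosome 14 and in Skint5, a member of the Skint family of skin and thymus that spans 521613 bp. Skint5 had 0.0055 and 0.0071 RPM of H3K36me2 and 0.0414 and 0.0452 RPM of H3K27me2. H3K36me2 was highest in Tnip3, an inhibitor of NF-kappaB signalling, at 0.485 and 0.491 RPM, followed by Cyp2j9, the platelet collagen receptor gene Gp6 at 0.413 and 0.418 RPM, and Gm5155. From the 10th to the 90th percentile of all members, H3K36me2 ran from 0.0451 to 0.478 of the genome mean in 1 library. In the other it ran from 0.0460 to 0.611. Tnip3 and Skint5 were picked as extremes of this mark among members of at least 20 windows, so the contrast between them follows from the choice. Skint5 was low in both marks, and the part of mappability in this contrast and in the Gm genes was not tested.

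H3K27me2 was lowest in zinc finger genes and multi-copy genes. Zfp97 had 0.0083 and 0.0149 RPM, Zfp534 0.0093 and 0.0149 RPM and Rex2 0.0152 and 0.0241 RPM, and Gm3993 followed. The part of mappability in these lowest values was not tested. H3K27me2 was highest in the Cyp3a cluster, whose enzymes clear drugs in adult liver. Cyp3a11 had 0.589 and 0.703 RPM, Cyp3a57 0.595 and 0.652 RPM and Cyp3a16 0.556 and 0.6005 RPM, next to Gp6 at 0.5625 and 0.570 RPM. Cyp3a11 thus stood above the genome mean for H3K27me2 in both libraries and below it for H3K36me2, at 0.204 and 0.284 RPM.

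**Figure D2:**
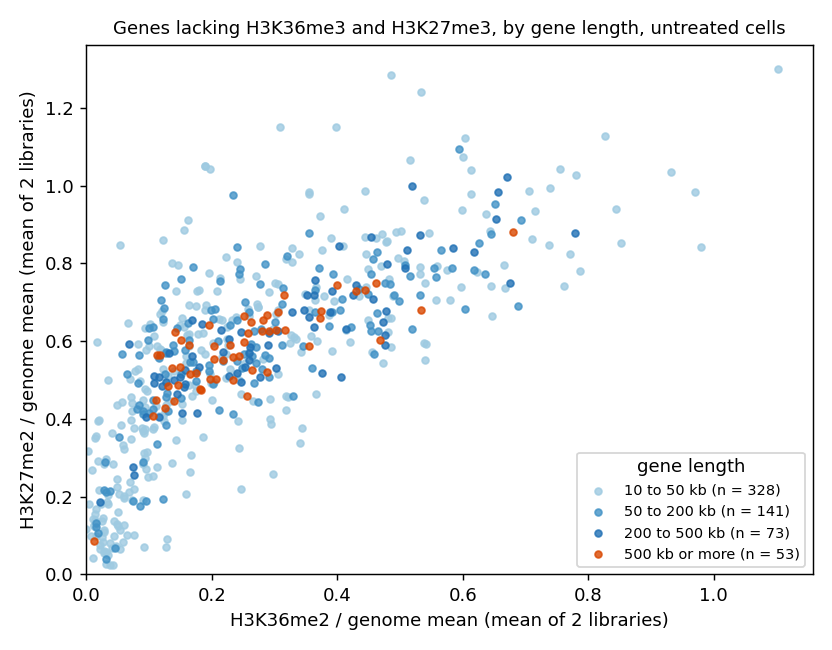
H3K27me2 against H3K36me2 for each of the 595 unmarked genes in untreated cells, both divided by the genome mean and averaged over 2 libraries, coloured by gene length. Most genes of 500 kb or more lie in a middle band. Skint5 lies at the lower left, and Fhit lies further right, above the members' 90th percentile for H3K36me2 in both libraries. Genes of 10 to 50 kb reach both the lowest and the highest values.

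H3K36me2 was much the same in the shortest and the longest members and somewhat higher between them. In the 328 genes of 10 to 50 kb H3K36me2 was 0.223 and 0.2797 of the genome mean, and in the 53 genes of 500 kb or more it was 0.221 and 0.283. The 141 genes of 50 to 200 kb had 0.235 and 0.3003, and the 73 genes of 200 to 500 kb had 0.278 and 0.349, the highest of the 4 classes in both libraries. H3K27me2 was 0.523 and 0.566 in the short genes and 0.550 and 0.606 in the longest, and it too was highest at 200 to 500 kb, with 0.596 and 0.644. Single long genes differed more than the classes did: Ptprd had 0.0874 and 0.121 RPM of H3K36me2, Lrp1b 0.0758 and 0.106 RPM, Robo2 0.103 and 0.141 RPM and Cntnap2 0.1201 and 0.139 RPM, with Macrod2 at 0.191 and 0.273 RPM and Fhit at 0.309 and 0.375 RPM. Ptprd, Lrp1b, Robo2 and Cntnap2 lay close together, Macrod2 was above all 4 of them in both libraries, and Fhit was above Macrod2. The length classes were chosen after the values were seen.

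The same genes were low in H3K27me3 in the DMSO libraries. These libraries took no part in the selection, but the rule chose the same bodies for low H3K27me3 in untreated cells of the same line. A low level here is thus largely set by the choice and is given as description. On the deposited spike-in scale the member mean was 15.1 and 11.3, or 0.310 and 0.317 of the genome mean, 4.87-fold and 4.73-fold below the other eligible genes (log2 difference -2.26 ± 0.03, n = 2, exact sign-flip permutation p = 0.5). By the median gene the difference was -1.15. Among the 6 longest, Robo2 had 20.7 and 17.8, Fhit 21.1 and 15.2 and Lrp1b 13.9 and 10.0. Zfp97 was listed at 0 in both DMSO libraries, and Zfp534 had 0.205 and 0.465.

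H3K27me3 was far lower over these bodies after the EZH2 inhibitor, as it was over nearly all genes. The member mean was 13.2 ± 2.68 (SD, n = 2) with DMSO but 0.0288 ± 0.00483 with the inhibitor, a 457-fold lower level (log2 difference -8.84, exact permutation p = 0.33, the smallest possible with 2 against 2). The DMSO libraries, at 15.1 and 11.3, did not overlap the inhibitor libraries, at 0.0322 and 0.0254. The fold rests on the authors' scaling, and the inhibitor libraries held a median of only 6 and 10 window reads per unmarked gene body. Scaled to library totals instead, the share of reads in these bodies went from 0.310 and 0.317 of the genome mean to 0.353 and 0.380, a log2 difference of 0.22 (exact permutation p = 0.33). Relative to the other eligible genes the change was -0.041 (exact permutation p = 1) by class means, and -0.91 by median genes.

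Gene by gene, limma on log2(value + 1) called 16778 of 16793 protein-coding genes lower after the inhibitor and none higher at an adjusted p under 0.05 (99.9%), so a call in an unmarked gene says nothing particular to it. Of 581 unmarked genes that passed the filter of 10 reads, 579 were lower, and 14 did not pass. Their median log2 difference was -3.84 beside -4.70 over all genes, and with values near 0 after the inhibitor it is set largely by the DMSO level and the pseudocount. Cntnap2 went from 17.2 and 13.9 to 0.0350 and 0.0221, a limma log2 difference of -4.0 (SE 0.235, adjusted p = 2.2e-08), and Robo2 from 20.7 and 17.8 to 0.0321 and 0.0228, a difference of -4.30 (limma adjusted p = 1.1e-08). The other 4 of the 6 longest ranged from -3.65 in Lrp1b to -4.19 in Fhit. A pseudocount of 1 leaves little spread between the inhibitor libraries, so these SE and p-values rest mostly on the DMSO libraries. The Cntnap2 estimate was -6.92 with a pseudocount of 0.1 and -9.14 with limma-voom. These calls rest on the spike-in scale: with libraries scaled to their totals Cntnap2 was at -0.051 (limma adjusted p = 0.84), Robo2 at -0.37 (limma adjusted p = 0.17) and Fhit at 0.18 (limma adjusted p = 0.43), and none of the 6 longest passed. With libraries scaled to their totals, 188 of 581 (32.4%) had both inhibitor libraries above both DMSO libraries and 138 (23.8%) below, against 53.5% and 27.9% of all genes tested. In simulated H3K27me3 libraries of these depths, scaled to library totals, limma found 0 of 200 genes changed 4-fold. Of 200 changed 64-fold it found 180 along with 187 false calls. Single-gene H3K27me3 calls of those sizes are thus unreliable on that scale. The simulation held no overall loss and did not use the spike-in factors, so it does not measure the calls on the spike-in scale.

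The start sites of some unmarked genes departed from their bodies. In 3 windows of 1 kb around the start, H3K27me3 exceeded the genome mean in both DMSO libraries at 109 of 478 members (22.8%). Among members with 10 or more CG it did so at 65 of 98 (66.3%), and among those with fewer at 44 of 380 (11.6%). Over all other eligible genes with a promoter entry the share was 43.7%, and there it was lower with 10 or more CG (38.2%) than with fewer (58.0%), the reverse of the order in members. In H3K27me3-marked genes it was 94.5% with 10 or more CG and 52.5% with fewer. By length, 27 of 36 members of 500 kb or more (75%) had such a start, and 14 of 274 of 10 to 50 kb (5.11%). CG count and length go together here: 22 of those 36 long genes and 25 of the 274 short genes had 10 or more CG. The selection itself bears on the contrast by length, because 3 high windows raise the mean of a short body more than that of a long one and can put a short gene over the H3K27me3 limit. It is given as a description of the members, and the same holds for the contrast by CG count. This comparison was chosen after the values were seen.

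The signal was narrow. Averaged over the 98 CG-rich members, H3K27me3 after DMSO was 5.72 and 5.21 times the genome mean in the window at the start, and 0.429 and 0.467 times at 5 kb into the gene. At 5 kb before the start, outside the gene body, it was 0.351 and 0.396. Inside the gene the level is bounded by the rule, which chose bodies low in H3K27me3 in untreated cells. The fall on that side is therefore a description only. The 380 CG-poor members reached 0.736 and 0.7415 at the start. H3K36me2 was also higher at the starts, with 0.660 and 0.719 of the genome mean in CG-rich members after DMSO beside 0.292 and 0.273 at 5 kb inside, and stayed below the mean.

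**Figure D3:**
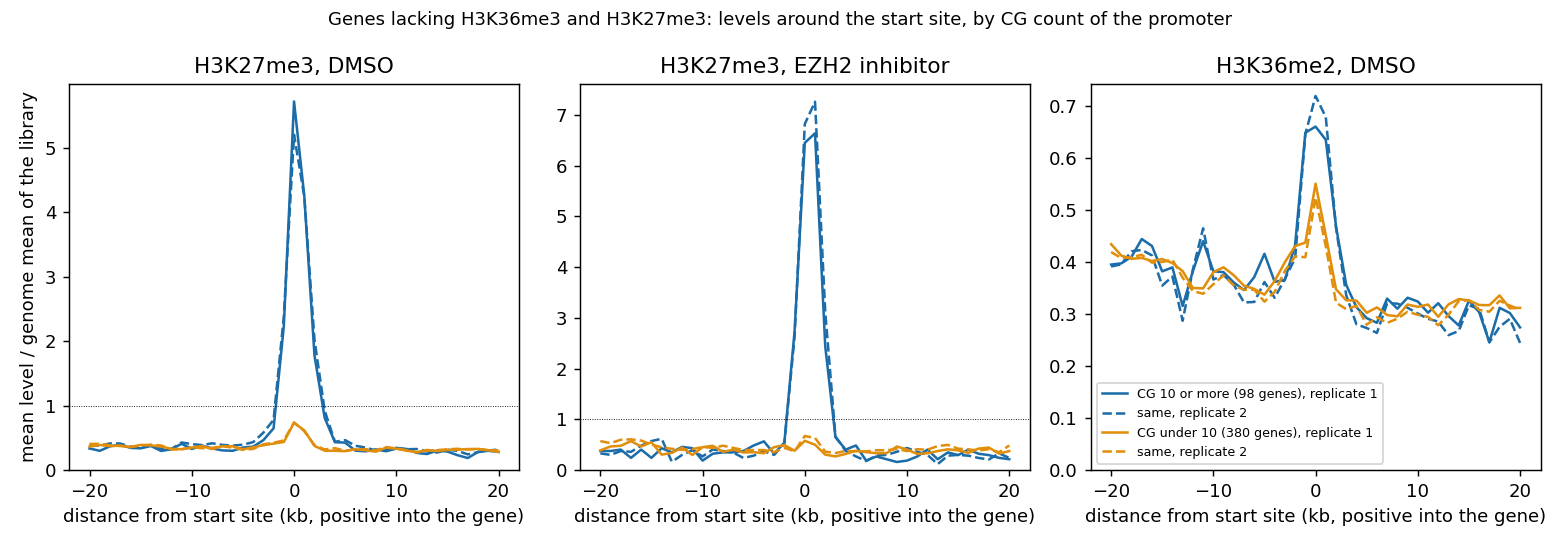
Mean level around the start site of unmarked genes divided by the genome mean, for 98 genes with 10 or more CG in the promoter and 380 with fewer, 1 line per library; distance is in kb, positive into the gene. CG-rich starts carry a narrow H3K27me3 peak of 5.72 and 5.21 times the genome mean after DMSO, and the CG-poor starts stay below the mean. Low H3K27me3 on the gene side is partly set by the selection rule.

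The starts of the unmarked genes with printed promoters, and of Fhit, lay well below the top of the range, which reached 20.5 and 20.2 times the genome mean in Nrg3. At the start of Cntnap2, with 14 CG in 300 bases, H3K27me3 after DMSO was 5.09 and 4.88 times the genome mean over a body at 0.353 and 0.390. Macrod2, with 33 CG, had only 0.814 and 1.42, and Fhit, with 12 CG, had 0.977 and 0.976. Klra2 had 0.692 and 0.504, Serpinb10 0.122 and 0.252, Sult2a5 0 and 0.0629, and the Cyp2c39 windows held no read in any H3K27me3 or H3K36me2 library with a spike-in. The Cyp2c39 start thus has no measurable level. Of the other 6 starts, that of Cntnap2 was above the genome mean in both libraries, that of Macrod2 in 1 library, and the others in neither.

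After the inhibitor H3K27me3 was far lower at these starts as well. At the 98 CG-rich starts the scaled mean was 169.6 ± 40.5 (SD, n = 2) with DMSO but 0.426 ± 0.0768 with the inhibitor, a 395-fold lower level (exact permutation p = 0.33), while the bodies of the same genes were 505-fold lower. Relative to each library's genome mean the starts went from 4.01 ± 0.0874 to 5.42 ± 0.209 (log2 difference 0.43, exact permutation p = 0.33). This was not particular to unmarked genes: at CG-rich starts the same difference was 0.57 in H3K27me3-marked genes and 0.47 in the other eligible genes. The median start went the other way, from 2.42 ± 0.20 to 1.18 ± 0.422 (log2 difference -1.08, exact permutation p = 0.33), as it did in H3K27me3-marked genes (-0.94) and not in the other genes (1.72). The inhibitor medians of unmarked starts were 0.885 and 1.48 times the genome mean, equal to 1 read and 3 reads over the 3 windows. This median difference thus rests on very few reads. The rise of the mean depended on the 6 starts named below. Without them the mean of the other 92 went from 3.39 and 3.255 times the genome mean to 2.62 and 2.66. Those 6 were chosen by the inhibitor value, so the choice itself favours a lower inhibitor mean without them. On this scale 17 starts (17.35%) had both inhibitor libraries above both DMSO libraries, 43 (43.9%) had both below, and 13 held no read after the inhibitor. Among H3K27me3-marked genes with 10 or more CG, 30.7% were above and 48.0% below, and among the other eligible genes 47.7% and 20.5%. Few reads lay behind many of these: at least 10 reads in each inhibitor library were found at 8 of the 17 unmarked starts that were above, at 35 of 39 in H3K27me3-marked genes and at 222 of 3427 in the other genes. That minimum was not counted at the starts that were below.

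The 6 CG-rich starts highest relative to the genome mean after the inhibitor were Nrg3, a neuregulin ligand of ErbB4; Cdh8, a cadherin; Mdga2, a synaptic adhesion modulator; Dpp10, a potassium channel subunit; Grm7, a metabotropic glutamate receptor; and Zfp804a, a zinc finger gene. They held 21.8% and 22.6% of the reads at the 98 starts after DMSO, and 53.4% and 55.2% after the inhibitor. Because they were chosen by the inhibitor value, a larger share there is built into the choice. At Nrg3 H3K27me3 was 20.5 and 20.2 times the genome mean after DMSO (503 and 642 reads) and 85.0 and 109.7 times after the inhibitor (96 and 222 reads), and its scaled level was 114-fold lower. Cdh8 went from 13.55 and 14.1 to 54.0 and 48.9 times the genome mean. Dach1, with 12.1 and 10.4 after DMSO, had 12.4 and 9.88 after the inhibitor, so a high start under DMSO did not always stand out more after the drug.

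**Figure D4:**
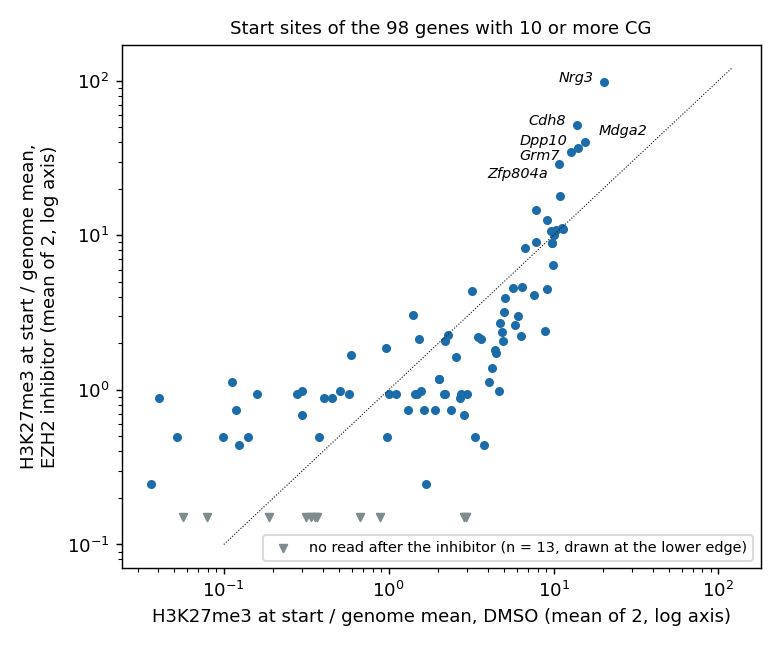
H3K27me3 in 3 windows at the start of the 98 unmarked genes with 10 or more CG, divided by the genome mean, after DMSO (horizontal) and after the EZH2 inhibitor (vertical), each a mean of 2 libraries on log axes; the dotted line marks equal values. The 6 named starts lie above the line, and 13 starts without a read after the inhibitor are drawn at the lower edge.

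H3K36me2 over the unmarked bodies was higher on average after the inhibitor, by less than the spread between libraries. On the spike-in scale the class mean was 101.5 and 64.1 after DMSO and 153.7 and 81.5 after the inhibitor, so the groups overlapped (log2 difference 0.47, exact permutation p = 0.667). The value was 0.015 without the first inhibitor library, 0.14 without the second DMSO library, 0.81 without the first DMSO library and 0.93 without the second inhibitor library. A ratio within each library removes its overall scale. Relative to the genome mean the class stood at 0.314 and 0.3004 after DMSO and 0.380 and 0.360 after the inhibitor, with no overlap. Relative to the other eligible genes the log2 difference was 0.40 without overlap (exact permutation p = 0.33, the smallest possible), and those genes went from 1.65 ± 0.0616 to 1.51 ± 0.0982 of the genome mean.

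The H3K27me3-marked genes also stood higher relative to the genome mean after the inhibitor, by a larger ratio. They went from 0.521 ± 0.000262 of the genome mean to 0.701 ± 0.0304, and the change in unmarked genes relative to them was -0.16 (exact permutation p = 0.33). Unmarked genes started lower. The classes were therefore also compared over genes between the 10th and 90th percentile of their untreated H3K36me2, 0.0464 to 0.538 of the genome mean, a comparison added after the values were seen. The starting levels still differed in that range, with an untreated mean of 0.241 of the genome mean in unmarked, 0.355 in H3K27me3-marked and 0.398 in the remaining genes. Within that range the log2 difference relative to the genome mean was 0.30 in 475 unmarked genes, 0.49 in 330 H3K27me3-marked genes and 0.00 in 704 genes of neither class. The difference between unmarked genes and the 704 was 0.30 with overlapping libraries (exact permutation p = 0.667). The log2 ratio of the 2 sets was -0.58 and -0.95 after DMSO and -0.27 and -0.67 after the inhibitor. It was thus higher after the inhibitor for each replicate number, though no label pairs the numbers. The difference between unmarked and H3K27me3-marked genes was -0.19 without overlap (exact permutation p = 0.33).

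**Figure D5:**
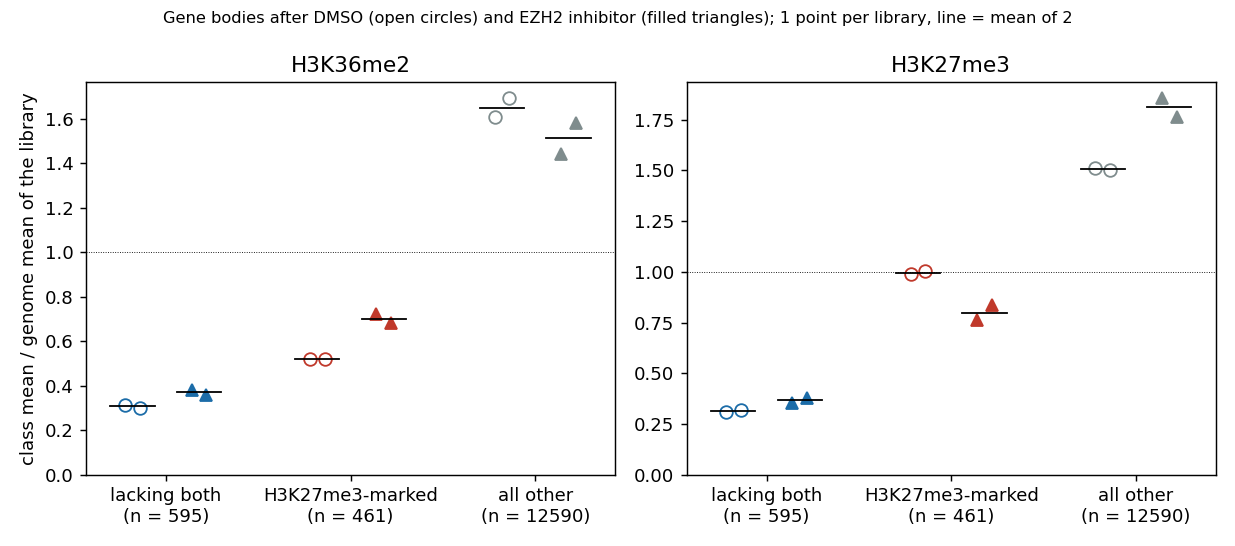
H3K36me2 (left) and H3K27me3 (right) over gene bodies of 3 classes after DMSO (open circles) and EZH2 inhibitor (filled triangles), as the class mean divided by the library's genome mean; 1 point per library, with the mean of 2 as a line. For H3K36me2 the unmarked genes move from 0.314 and 0.3004 to 0.380 and 0.360, the H3K27me3-marked genes move further, and the other genes stay above 1.

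By gene, limma on the spike-in scale without a replicate block called 6 of 16946 genes higher for H3K36me2 after the inhibitor (0.0354%) and none lower, and 0 of 595 unmarked genes. At an unadjusted p under 0.05 limma gave 40 of 595 unmarked genes and 220 of all 16946, and limma-voom on the recovered reads called 0 at an adjusted p under 0.05. The median estimate was 0.50 in unmarked genes, beside 0.07 over all genes tested and 0.67 in the H3K27me3-marked genes. Single libraries moved the medians of unmarked genes and of all genes alike. They were 0.049 and -0.27 without the first inhibitor library, and 0.18 and -0.18 without the second DMSO library. They were 0.83 and 0.33 without the first DMSO library, and 0.96 and 0.42 without the second inhibitor library. At an unadjusted p under 0.05 limma gave, in that order, 4 unmarked genes beside 54 of all genes, 0 beside 16, 36 beside 212 and 282 beside 1456. Both inhibitor libraries were above both DMSO libraries in 136 of 595 (22.9%), against 5.77% of all genes, and below them in 0 of 595, against 0.726%. Being above was not particular to unmarked genes: it held for 168 of 461 H3K27me3-marked genes (36.4%). With libraries scaled to their totals, 374 (62.9%) were above and 37 (6.22%) below, against 16.4% and 39.6% of all genes, and 90.9% of H3K27me3-marked genes were above. That scaling moved the median of all genes from 0.07 to -0.14, and the median of the unmarked genes from 0.50 to 0.30, a shift that the change of scale gives to most genes alike. Genes in runs share windows or neighbours, and these counts take each gene once, so they are not counts of independent observations.

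The largest estimates among the 451 unmarked genes with 20 windows and 200 reads were in Rgs18, a regulator of G protein signalling in platelets, Serpinb7, a skin protease inhibitor, Epyc, a cartilage proteoglycan, and Gm31606. Rgs18 had 24.3 and 15.2 after DMSO against 47.2 and 52.5 after the inhibitor, without overlap (limma log2 difference 1.33, SE 0.48, adjusted p = 1.00). Serpinb7 had 61.6 and 41.9 after DMSO and 164.75 and 93.5 after the inhibitor (1.27, limma adjusted p = 1.00). Its neighbours Serpinb2, at 61.8 and 40.5 then 156.2 and 85.9, and Serpinb10, at 110.5 and 74.3 then 220.2 and 117.7, were likewise higher in both inhibitor libraries than in both DMSO libraries. None of these passed the adjusted test without a replicate block. In that fit the SE was 0.477 for Rgs18, Serpinb7, Epyc and Gm31606 alike. It is a spread pooled over genes and not each gene's own. It includes differences in overall scale between libraries, whose genome means were 323 and 213 after DMSO and 404 and 227 after the inhibitor. The part of these differences was not tested. With a block Rgs18, Serpinb7, Epyc and Gm31606 had a limma adjusted p under 0.05, though no label pairs the replicate numbers. The smallest estimates were in Gm6943 (-0.23), Gm3973 (-0.24), Zfp960 (-0.24) and Gm9295 (-0.26), and the DMSO and inhibitor libraries overlapped in each.

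The other named members lay between these. Ptprd had 69.6 and 46.3 after DMSO and 125.8 and 64.4 after the inhibitor, and Cntnap2 had 97.0 and 59.2 then 158.2 and 86.6, with overlap in both. Robo2 had 79.0 and 61.1 then 170.5 and 102.2, without overlap, as in Prl3a1, at 46.6 and 34.6 then 109.5 and 64.8. Among detoxification genes Cyp3a11 had 175.0 and 146.7 then 238.8 and 189.9, without overlap, while Cyp2c39 had 114.4 and 68.1 then 158.4 and 80.3 and Sult2a2 79.7 and 45.4 then 73.1 and 45.5, with overlap. Of the immune genes Klra17 had 52.0 and 29.96 then 80.9 and 58.4, without overlap, and Gbp6, an interferon-induced GTPase, had 251.7 and 172.95 then 323.4 and 170.95, with overlap. These values are on the spike-in scale, where the libraries of a group differ as a whole.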

How the data were processed

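Each of the 18 libraries was deposited by the authors as a track of log2 values, 1 per 1 kb window, with window starts 500 bp apart. Trim Galore 0.4.2, Bowtie2 2.2.6.2, SICER and the builds mm10 and dm3 are named in the submitters' processing notes, without their roles. The values behave as log2(1 + reads times a factor), with whole reads and 1 factor per library. The factor gives reads per 1000000 in untreated libraries, and in those with a spike-in it is a 3-decimal number taken to be the spike-in factor, whose derivation is not given in the sources used here. The authors' replicated peak lists carry a deposited score per peak of unstated scale, which served here to rank peaks inside their own list. Per the deposited description they list peaks found in both replicates, with no value for each library.

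Values were returned to the linear scale, non-overlapping windows with at least 500 bp in a gene body were averaged per gene (Python 3.11.15, pandas 2.3.3), and a window counted as in a peak at 500 bp of overlap. Class means were compared within libraries by exact sign-flip tests and between arms by exact permutation tests (two-sided). Genes of at least 5 windows on chromosomes 1 to 19 and X with at least 10 recovered reads over the 4 libraries were tested with limma 3.58.1 (R 4.3.3; lmFit, eBayes, no covariate) on log2(value + 1), with Benjamini-Hochberg adjustment. Fold changes on that scale understate the change of low genes. The limma procedure was tested on simulated data with 200 changed genes, scaled to library totals and without differences in overall scale between libraries. For H3K36me2 it recovered 199 at 4-fold with 16 false calls among 16931 genes and 200 at 64-fold with 17 among 16933. For H3K27me3, with its shallow inhibitor libraries, it recovered 0 at 4-fold among 16702 genes and 180 at 64-fold with 187 false calls among 16714. These counts do not carry over to the spike-in scale of the main fits. No negative binomial model was fitted, since the reads were recovered from log2 values, and limma-voom was an alternative.

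The unmarked genes and the gene lists were chosen with earlier results of these data known. Named genes are the 6 longest members, the 4 highest and 4 lowest for untreated H3K36me2 and for H3K27me2 among members of at least 20 windows, the 4 largest and 4 smallest H3K36me2 changes among members that also had 200 reads, the nearest on either side of each threshold and up to 3 longest of each list; others were chosen after their values were seen. Alternatives were scaling to library totals, a pseudocount of 0.1, other filters and thresholds, left-out gene ends or libraries, a replicate block and other peak overlaps.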

Additional observations from a re-analysis of the deposited data

How the results depend on the processing

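In all, 31 results were recomputed under 316 alternatives. Scaled to library totals, the H3K27me3 difference in unmarked genes turned from -8.84 to 0.22, that of Fhit to 0.18, and limma called 8618 genes (41.5% of genes tested higher and 9.78% lower) and 76 of 581 unmarked genes (13.1%), 55 of them higher and 21 lower. The H3K27me3 difference relative to other genes, -0.041, turned to 0.090 with thresholds multiplied by 0.75, and leaving out 1 library each gave -0.13 to 0.048, above 0 without the first inhibitor library. The start-site difference of 0.43 was -1.08 by the median gene, where the inhibitor medians rest on 1 read and 3 reads. With a whole window required, 0.910% of unmarked windows lay in H3K27me2 peaks and 1.05% in H3K36me2 peaks, and with the higher-scoring 50% of peaks 0.158% and 0.315%. Genes called for H3K36me2 numbered 0 with library totals, with no filter, with limma-voom and with a variance trend (added after seeing the data), 1 with a value above 0 in all 4 libraries and 15 with a pseudocount of 0.1. Leaving out 1 library each gave 0 to 33 called genes and 0 to 1 unmarked gene, with 0 without the second DMSO library and 33 without the second inhibitor library. The same removals gave -0.57 to 0.11 for Gm6943, -0.65 to 0.17 for Zfp960 and -0.52 to 0.0011 for Gm9295. With a replicate block, limma called 2332 genes (13.6% of genes tested higher and 0.159% lower) and 391 unmarked genes, 390 of them higher. In that fit 415 of 461 H3K27me3-marked genes were called higher. Same-numbered libraries deviated together (correlation 0.696 for H3K36me2 and 0.141 for H3K27me3), but with 2 pairs a shared number is no proof of a shared culture, and under the block H3K27me3 gave 16788 genes and 580 unmarked genes. The causes of these changes were not tested. The H3K27me2 and H3K36me2 differences between classes in untreated cells kept their direction under every alternative run. At 6 and 10 median window reads per unmarked gene, single-gene H3K27me3 after the inhibitor is imprecise.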

Other observations

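Chromosome X was outside the rule, and its values are given here without a comparison. On it, 193 of 567 protein-coding genes of 10 kb or more (34.04%) met the same thresholds, which were not adjusted for the copy number of the chromosome. The symbol filter was not applied there. Of the genome mean, they had 0.370 of H3K27me1 and 0.355 of H3K27me2. H3K27me3 stood at 0.240, H3K36me2 at 0.220 and H3K36me3 at 0.142. Among the autosomes, the share of eligible genes that were unmarked ran from 8.88% on chromosome 14 to 1.15% on chromosome 11.

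A further 187 autosomal genes met both upper thresholds but not the H3K27me1 minimum. Of these, 119 (63.6%) had symbols of the Gm or LOC kind, which mark predicted genes, against 103 of the 595 unmarked genes (17.3%). All 5 marks were near 0 in them, between 0.00527 of the genome mean for H3K36me2 and 0.0216 for H3K27me1. In 19 unmarked genes the symbol began with Zfp, the prefix of zinc finger proteins. The symbol groups were chosen after the values were seen.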
